A study of Mus musculus with 8 samples.

Results

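The 10 imprinted genes outside the large Igf2-H19 and Dlk1-Dio3 clusters are described here, namely Peg3, Peg10, Mest, Nnat, Plagl1, Sgce, Snrpn, Grb10, Impact and Slc38a4. Members were taken by their gene symbol, and all 10 were found once in each of the 8 expression tables, among 39009 entries. Of the 17011 genes that entered the tests, 9 were members, because the Peg10 entry carried the FAIL mark of the quantification program in 4 libraries and is therefore given by library. The levels are FPKM, in which fragment counts are divided by transcript length and library size, so they can be set side by side between genes.

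An imprinted gene is transcribed mainly from the copy inherited from 1 parent. In most cases, though not all, DNA methylation placed in the egg or sperm marks the copies differently at an imprint control region. After fertilisation the mark is carried through cell divisions by DNA methyltransferase Dnmt1 and its partner Uhrf1, and protected at control regions by the zinc finger protein Zfp57 with its cofactor Trim28. Most members are expressed from the paternal copy, and Grb10 is the exception in that many mouse tissues use the maternal copy while neurons use the paternal one. Imprinted genes are followed in cultured pluripotent cells because their marks can be lost or gained in culture and during reprogramming. An FPKM value sums both copies and all isoforms, so the levels carry no allele information.

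The libraries fall into 5 groups. NSC-CiPSC lines 1, 2 and 3 are chemically induced pluripotent stem cells, which are made with small molecules, from neural stem cells (NSC). The NSC library was made from E13.5 neural stem cells grown to passage 2. IEC-CiPSC lines 10 and 13 were derived from small intestinal epithelial cells (IEC), and the IEC library comes from primary cells of the same embryonic stage. The single embryonic stem cell library (ESC) is the R1 line on a 129X1 x 129S1 background, whereas all CiPSC lines and source cells carry the GOFGFP transgene, a GFP reporter of Oct4 (Pou5f1) regulatory sequence, on a C57BL/6J by ICR background. Their strain is labelled C57BL/6J-Tg(GOFGFP)11Imeg/RbrcxICR for NSC, with the number after the bracket running from 12 to 14 for NSC-CiPSC lines 1 to 3, 15 for IEC and 16 and 17 for IEC-CiPSC lines 10 and 13. The number goes up by 1 from library to library in the order listed, so it may not stand for separate transgenic strains. Strain and pluripotent cell type therefore cannot be told apart in comparisons with ESC. NSC, IEC and ESC have 1 library each, and whether lines of an origin came from separate embryos is not labelled, so each p-value reflects the spread among these lines, which may be technical, and assumes that the single libraries vary alike.

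Estimated depth was alike, at about 8820000 to 10120000 fragments per library. The 6 pluripotency markers (Pou5f1, Nanog, Zfp42, Esrrb, Tdgf1, Dppa5a) summed to between 4866 and 6612 FPKM in NSC-CiPSC, to between 8222 and 8493 FPKM in IEC-CiPSC and to 4859 FPKM in ESC, against 10.2 FPKM in NSC and 0.571 FPKM in IEC. The 6 neural stem cell markers (Nes, Pax6, Olig2, Fabp7, Ptprz1, Slc1a3) summed to 5719 FPKM in NSC, and every one was at 10 FPKM or more there. The IEC library did not match its label as closely: only 2 of 8 intestinal epithelium markers reached 10 FPKM in it, with a sum of 33.7 FPKM, while 8 of 8 mesenchyme markers did, with a sum of 6792 FPKM. In the same library smooth muscle markers summed to 3982 FPKM, leukocyte markers to 3440 FPKM, liver markers to 5776 FPKM and pancreas markers to 2303 FPKM, whereas leukocyte, liver and pancreas markers summed to under 1 FPKM in each other library. The part of these other cell types in the IEC levels of the members was not tested.

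Promoter sequences are shown for 3 members whose levels set the origins or the routes apart, to show what lies upstream of the start in genes with and without the letters that Zfp57 recognises. The letters searched were TGCCGC on either strand (GCGGCA on the other), and no other motif was searched. Each line gives the 250 bases before the start on the strand of the gene, 5′ to 3′, from RefSeq on GRCm38.p6, with the matched letters in capitals. The Mest stretch is chr6:30737800-30738049 on the plus strand, the Plagl1 stretch is chr10:13090582-13090831 on the plus strand, and the Slc38a4 stretch is chr15:97055957-97056206 on the minus strand. Where RefSeq lists several starts, the one with most CpG pairs is given.
Mest: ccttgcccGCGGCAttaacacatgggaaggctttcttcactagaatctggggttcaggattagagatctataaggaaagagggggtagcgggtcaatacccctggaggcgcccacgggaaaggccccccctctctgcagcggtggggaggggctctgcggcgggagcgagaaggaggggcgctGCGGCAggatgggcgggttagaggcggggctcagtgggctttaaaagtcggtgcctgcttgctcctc
Plagl1: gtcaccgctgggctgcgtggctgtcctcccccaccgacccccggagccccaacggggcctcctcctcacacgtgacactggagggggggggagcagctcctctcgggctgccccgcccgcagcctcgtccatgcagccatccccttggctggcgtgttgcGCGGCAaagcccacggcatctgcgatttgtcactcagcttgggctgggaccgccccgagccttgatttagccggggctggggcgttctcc
Slc38a4: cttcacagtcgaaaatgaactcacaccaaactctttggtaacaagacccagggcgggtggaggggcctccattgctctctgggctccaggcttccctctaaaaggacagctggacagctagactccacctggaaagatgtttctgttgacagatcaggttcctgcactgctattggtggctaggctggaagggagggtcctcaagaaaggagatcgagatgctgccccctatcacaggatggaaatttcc

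In windows of 300 bases around the start (250 before, 50 after), the letters stood 2 times in Mest, 1 time each in Plagl1, Nnat, Snrpn and Grb10, and in neither Peg3 nor Slc38a4. That is 5 of the 7 members matched in the RefSeq table, against 11.6% of all 32851 windows of that length. Among several starts, the member window was the one with most CpG pairs and, at a tie, most matches. The letters hold a CpG pair and no such choice was made for all windows, so the shares are not alike. Windows differed widely in CpG pairs, from 45 in Grb10 and 26 in Plagl1 to 7 in Snrpn and 5 in Slc38a4, against a median of 7 over all windows. Peg10, Sgce and Impact are named without sequence. A match is a description of letters and not a bound site.

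Among the zinc finger regulators, Peg3 stood above the embryonic stem cell level everywhere. Plagl1 lay below that level in the NSC-CiPSC lines and above it in the IEC-CiPSC lines. Peg3, a large zinc finger protein with roles in growth and maternal behaviour (minus strand of chr7:6703892-6730421, mm10), had 47.6, 22.3 and 29.1 FPKM in NSC-CiPSC lines 1 to 3 and 19.6 FPKM in NSC. It had 15.3 and 14.2 FPKM in IEC-CiPSC lines 10 and 13 and 30.6 FPKM in IEC, and ESC had 4.33 FPKM. ESC was thus the lowest library, the IEC-CiPSC lines came next, and line 1 of NSC-CiPSC was the highest of all.

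Plagl1, also called Zac1, is a zinc finger transcription factor that restrains proliferation (plus strand of chr10:13090691-13131694). Its level was 9.46, 9.15 and 11.3 FPKM in NSC-CiPSC and 2.64 FPKM in NSC, where the interval given in the table ran from 0 to 6.54 FPKM. IEC-CiPSC lines 10 and 13 had 52.6 and 52.0 FPKM, IEC had 389 FPKM and ESC had 20.4 FPKM. The origins did not overlap, with ESC between them, and each kept the order of its source cells.

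Peg10 and Sgce are transcribed away from each other, with starts 102 bp apart on chromosome 6. Peg10, a retrotransposon-derived gene needed for the mouse placenta (plus strand of chr6:4747306-4760517), was listed at 116, 47.3 and 57.8 FPKM in NSC-CiPSC, of which the values of lines 1 and 3 were marked FAIL, and at 13.54 FPKM in NSC. IEC-CiPSC lines 10 and 13 were listed at 43.0 and 38.7 FPKM, both marked FAIL, against 10.4 FPKM in IEC and 40.4 FPKM in ESC. Every pluripotent library was listed above both source cell libraries, but a marked entry had an interval that reached down to 0.

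Sgce encodes epsilon-sarcoglycan, a membrane glycoprotein (minus strand of chr6:4674350-4747204), and ran the other way. It had 7.21, 7.18 and 7.11 FPKM in NSC-CiPSC against 30.6 FPKM in NSC, and 11.1 and 9.96 FPKM in IEC-CiPSC against 59.7 FPKM in IEC, with 4.45 FPKM in ESC. Both source cell libraries were above all pluripotent ones, and the head-to-head pair thus had opposite order between source and pluripotent cells.

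Nnat and Mest, both linked to the endoplasmic reticulum membrane, had their highest levels in source cells and averaged higher in NSC-CiPSC than in IEC-CiPSC. Nnat (neuronatin, a small proteolipid; plus strand of chr2:157560078-157562522) had 21.5, 33.9 and 41.0 FPKM in NSC-CiPSC against 163 FPKM in NSC. In IEC-CiPSC lines 10 and 13 it had 2.77 and 3.71 FPKM against 469 FPKM in IEC, and ESC had 7.28 FPKM. All 3 NSC-CiPSC lines lay above ESC and both IEC-CiPSC lines lay below it. The whole gene lies within the span of Blcap on the opposite strand, and whether the genes share exons was not examined. The strand of counting is not given in the sources used here, so reads from any shared stretch cannot be told apart.

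Mest, an alpha/beta hydrolase family member tied to growth (plus strand of chr6:30723547-30748455), had 101, 47.1 and 66.6 FPKM in NSC-CiPSC against 119 FPKM in NSC. Lines 10 and 13 of IEC-CiPSC had 14.2 and 21.2 FPKM against 226 FPKM in IEC, with 79.7 FPKM in ESC. The IEC-CiPSC lines were the lowest of the 8 libraries, and ESC lay among the NSC-CiPSC lines. Mest overlaps Copg2 on the opposite strand by 902 bp.

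The amino acid transporter gene Slc38a4 (minus strand of chr15:96994823-97055956) was high in every pluripotent library. NSC-CiPSC lines had 65.8, 102 and 106 FPKM against 0.163 FPKM in NSC, where the interval reached 0. IEC-CiPSC lines had 71.1 and 61.8 FPKM against 35.7 FPKM in IEC, and ESC had 52.5 FPKM. NSC stood alone near 0, and the 2 sets of lines overlapped.

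Grb10 is an adaptor that dampens insulin and growth factor receptor signalling (minus strand of chr11:11930508-12038683). It had 13.2, 12.7 and 12.0 FPKM in NSC-CiPSC against 3.38 FPKM in NSC, and 15.3 and 13.6 FPKM in IEC-CiPSC against 181 FPKM in IEC, with 9.16 FPKM in ESC. The pluripotent libraries lay close together between a low NSC and a high IEC. Isoforms from the maternal and paternal promoters are summed in these values.

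Impact, which inhibits activation of the kinase Gcn2 and so favours translation, had 63.7, 29.2 and 36.0 FPKM in NSC-CiPSC against 15.1 FPKM in NSC. IEC-CiPSC lines had 32.9 and 32.8 FPKM against 30.4 FPKM in IEC, and ESC had 39.6 FPKM. Apart from NSC below and NSC-CiPSC line 1 above, the libraries lay within a narrow range.

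Snrpn encodes the spliceosomal protein SmN and lies in the mouse counterpart of the Prader-Willi syndrome region (minus strand of chr7:59982495-60140219). It had 98.8, 110.5 and 101 FPKM in NSC-CiPSC against 44.3 FPKM in NSC, and 65.6 and 64.6 FPKM in IEC-CiPSC against 6.22 FPKM in IEC, with 102 FPKM in ESC. NSC-CiPSC and ESC shared the highest levels, the IEC-CiPSC lines came next, and the source cells were lowest. Snurf shares 9601 bp with Snrpn on the same strand and was marked LOWDATA, and Gm38393 shares 22570 bp on that strand, so reads from these shared stretches cannot be told apart.

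**Figure D1:**
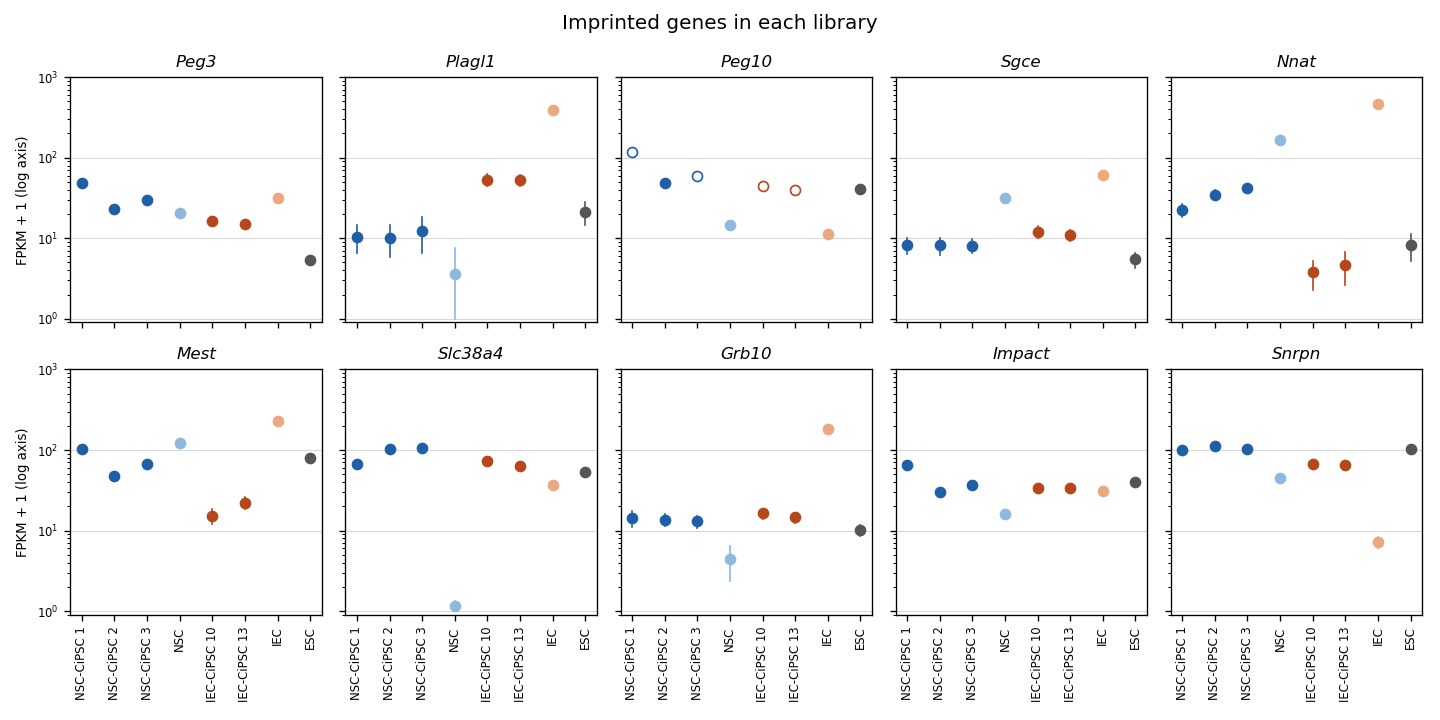
Levels of the 10 imprinted genes in each library, as FPKM + 1 on a log axis, with bars for the 95% interval given in the tables and open circles for Peg10 entries marked FAIL. Colours mark NSC-CiPSC, NSC, IEC-CiPSC, IEC and ESC; Slc38a4 is near 0 in NSC alone, and Plagl1, Grb10 and Nnat are highest in IEC.

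The 2 source cell libraries differed most in Slc38a4, Plagl1 and Grb10. IEC had 219 times the NSC level of Slc38a4, 147 times that of Plagl1 and 53.6 times that of Grb10, while NSC had 7.13 times the IEC level of Snrpn. Peg10, Peg3, Mest, Sgce, Impact and Nnat stood at 1.30, 0.639, 0.528, 0.513, 0.497 and 0.348 times the IEC level in NSC. With 1 library on each side these ratios have no replicate check, and the Slc38a4 and Plagl1 ratios rest on NSC levels whose intervals include 0.

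On the neural route, 6 of the 9 tested members differed between the NSC-CiPSC lines and NSC: Slc38a4, Grb10, Plagl1 and Snrpn rose and Nnat and Sgce fell. A gene was called changed at a Benjamini-Hochberg adjusted p under 0.05 in limma on log2(FPKM + 1), over all 17011 genes, with a difference of at least 2-fold, and 39.0% of all tested genes were called in this comparison (18.3% higher and 20.7% lower, and 55.9% with no minimum fold). The median log2 difference over the 9 members was 1.20, against 0.03 over all genes tested. In bulk RNA, fewer cells of a type and less RNA per cell cannot be told apart.

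Slc38a4 had the largest neural-route difference, at 6.28 ± 0.32 on the log2 scale (SE; limma adjusted p = 0.000468), and this scale understates the change of a gene near 0, since a pseudocount of 0.1 gave 8.41. Grb10 differed by 1.64 ± 0.11 (limma adjusted p = 0.000938), Plagl1 by 1.59 ± 0.14 (limma adjusted p = 0.00167) and Snrpn by 1.20 ± 0.08 (limma adjusted p = 0.000975). Sgce fell by 1.95 (SE 0.10, limma adjusted p = 0.000452) and Nnat fell by 2.36 (SE 0.40, limma adjusted p = 0.0104). Values for the members without a call were 1.37 ± 0.46 for Impact (limma adjusted p = 0.0673), 0.66 ± 0.44 for Peg3 (0.273) and -0.80 ± 0.49 for Mest (0.239). Without NSC-CiPSC line 1 Impact was called, at 1.05 on the log2 scale (limma adjusted p = 0.0135).

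The intestinal route had the opposite balance: Nnat, Mest, Grb10, Plagl1 and Sgce fell in the IEC-CiPSC lines against IEC and Snrpn alone rose. These were again 6 of 9 tested members, where 45.3% of all genes were called (19.1% higher and 26.2% lower, and 60.6% with no minimum fold), and the median of the 9 was -2.40 against -0.03 over all genes tested. IEC-CiPSC summed to between 34.7 and 36.6 FPKM of mesenchyme markers, against 6792 FPKM in IEC, so other cell types move with this comparison, and their part in it was not tested.

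Nnat fell by 6.80 on the log2 scale (SE 0.42, limma adjusted p = 0.000522), the largest difference of any member, and Mest fell by 3.63 (SE 0.52, limma adjusted p = 0.00575). Grb10 fell by 3.56 (SE 0.12, limma adjusted p = 8.27e-05), Plagl1 fell by 2.87 (SE 0.14, limma adjusted p = 0.000289) and Sgce fell by 2.40 (SE 0.10, limma adjusted p = 0.000189). Snrpn differed by 3.20 ± 0.09 (limma adjusted p = 4.79e-05). Uncalled values were -1.01 ± 0.47 for Peg3 (limma adjusted p = 0.133), 0.87 ± 0.34 for Slc38a4 (0.0908) and 0.11 ± 0.49 for Impact (0.871). Leaving out NSC-CiPSC line 1, which enters only through the shared spread, gave a call to Peg3 at the same difference (limma adjusted p = 0.0241).

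The change itself differed between the routes for 6 of 9 tested members, where 30.5% of all genes had such a difference (17.6% higher and 12.9% lower, and 38.2% with no minimum fold). Taken as the neural change minus the intestinal change on the log2 scale, it was 5.41 ± 0.47 for Slc38a4 (limma adjusted p = 0.00226), 5.20 ± 0.16 for Grb10 (9.02e-05), 4.46 ± 0.20 for Plagl1 (0.000292), 4.45 ± 0.58 for Nnat (0.0075) and 2.83 ± 0.72 for Mest (0.0441). Snrpn had -1.99 ± 0.12 (limma adjusted p = 0.000748), a smaller rise on the neural than on the intestinal route. Sgce fell on both routes, with a difference between them of 0.45 ± 0.14 that was not called (limma adjusted p = 0.0784). Each of these values holds in full the difference between the single NSC and IEC libraries. The Mest call was lost with a pseudocount of 0.1 (limma adjusted p = 0.0501), with no filter on low values (0.0618), without NSC-CiPSC line 3 (0.105), without IEC-CiPSC line 10 (0.128) and without line 13 (0.0919).

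**Figure D2:**
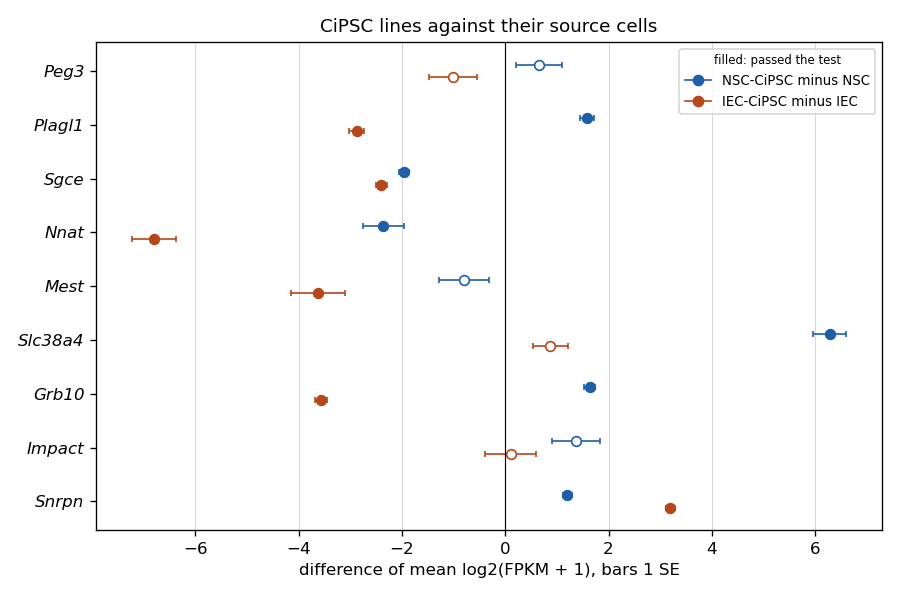
Difference of mean log2(FPKM + 1) of the lines minus their source cells for the 9 tested members, with bars of 1 SE; filled points passed the test. Plagl1 and Grb10 lie right of 0 on the neural route and left of it on the intestinal route, and Sgce and Nnat lie left on both.

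Peg10 could be tested only by keeping entries marked FAIL, an alternative chosen after seeing the data and run over 17027 genes. It was then higher in NSC-CiPSC than in NSC by 2.25 ± 0.55 on the log2 scale (limma adjusted p = 0.0281), a call that rests on 2 marked values of 3. In IEC-CiPSC it was 1.87 ± 0.58 against IEC (limma adjusted p = 0.0504), and against ESC it was 0.74 in NSC-CiPSC and 0.01 in IEC-CiPSC, neither called.

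Against ESC the members lay closer, though not all alike: Peg3 was the gene farthest above ESC in both sets of lines and Mest the one farthest below in IEC-CiPSC. Within 2-fold of ESC on the log2(FPKM + 1) scale were 6, 7 and 7 of 10 members in NSC-CiPSC lines 1 to 3 and 5 and 6 of 10 in IEC-CiPSC lines 10 and 13, against 1 in NSC and 2 in IEC. Over all genes at 1 FPKM or more in either library, 86.2 to 88.8% lay within that range in the lines, 46.5% in NSC and 43.3% in IEC. The member counts include Peg10, whose values in NSC-CiPSC lines 1 and 3 and in both IEC-CiPSC lines were marked FAIL. Peg3 lay outside the 2-fold range in all 7 libraries. Nnat lay outside it in all but IEC-CiPSC line 13.

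For NSC-CiPSC against ESC, limma called 0 of 9 members, where 2.81% of all genes were called (0.946% higher and 1.86% lower, and 4.34% with no minimum fold). An unadjusted limma p under 0.05 was reached by 5 of 9, and by 3758 of all 17011 genes. Peg3 averaged 33.0 ± 13.1 FPKM (SD, n = 3), 7.62 times the ESC level, with a log2 difference of 2.60 ± 0.44 (limma adjusted p = 0.0653). Nnat averaged 32.1 ± 9.90 FPKM (SD, n = 3), 4.41 times the ESC level, at 1.95 ± 0.40 (limma adjusted p = 0.0909). Leaving out line 1 gave both a call, at 2.31 for Peg3 (limma adjusted p = 0.034) and 2.21 for Nnat (0.0382).

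Plagl1 passed the p threshold but not the fold, at -0.97 ± 0.14 on the log2 scale (limma adjusted p = 0.0473). Sgce was at 0.58 ± 0.10 and Grb10 at 0.42 ± 0.11, with limma adjusted p of 0.0654 and 0.134. Snrpn was at 0.02 with a 95% interval from -0.20 to 0.25, the narrowest of the 9. Slc38a4 was at 0.76, Impact at 0.04 and Mest at -0.22, and their intervals were wide: that of Mest ran from -1.57 to 1.14.

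The IEC-CiPSC lines were set against the same ESC library. Plagl1 and Sgce were called, 2 of 9 members where 3.36% of all genes were called (1.63% higher and 1.73% lower, and 4.91% with no minimum fold), and both were higher. Plagl1 averaged 52.3 ± 0.393 FPKM (SD, n = 2), 2.56 times the ESC level, at 1.31 ± 0.14 on the log2 scale (limma adjusted p = 0.028). Sgce averaged 10.5 ± 0.805 FPKM (SD, n = 2), 2.36 times the ESC level, at 1.08 ± 0.10 (limma adjusted p = 0.0224). The 8 mesenchyme markers summed to 34.7 and 36.6 FPKM in IEC-CiPSC lines 10 and 13, with 1 of 8 at 10 FPKM or more and none at 0, against 9.93 FPKM in ESC, where none reached 10 FPKM and Lum was at 0. In NSC-CiPSC they summed to 5.85 to 8.89 FPKM, and both Plagl1 and Sgce were highest in IEC, where these markers were high. Smooth muscle markers, also high in IEC, summed to 63.7 and 74.6 FPKM in IEC-CiPSC lines 10 and 13. Their sum was 50.3 to 95.8 FPKM in NSC-CiPSC and 14.9 FPKM in ESC. Leukocyte, liver and pancreas markers summed to under 1 FPKM in each line. Of the other members highest in IEC, Grb10 lay above ESC in both IEC-CiPSC lines, and Nnat and Mest lay below it. The part of such cells in the calls was not tested. Without NSC-CiPSC line 2, IEC-CiPSC line 10 or IEC-CiPSC line 13 in turn both calls were lost (limma adjusted p up to 0.165), and Sgce was also lost without NSC-CiPSC line 3 (0.0909).

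Mest had the largest IEC-CiPSC difference from ESC of any member, at -2.13 ± 0.52 (limma adjusted p = 0.11), with ESC at 4.50 times the mean of 17.7 ± 4.91 FPKM (SD, n = 2). Peg3 was at 1.56 ± 0.47 (limma adjusted p = 0.156) and Nnat at -0.97 ± 0.42 (0.267). Peg3 passed without NSC-CiPSC line 1, at the same difference (0.045). Snrpn was at -0.64 ± 0.09, past the p threshold (limma adjusted p = 0.0427) and short of 2-fold. Grb10, Slc38a4 and Impact were at 0.60, 0.33 and -0.26 and had no call.

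Between origins, Plagl1 was lower and Nnat higher in NSC-CiPSC than in IEC-CiPSC, 2 of 9 members where 4.32% of all genes were called (1.56% higher and 2.76% lower, and 9.54% with no minimum fold). Plagl1 averaged 9.98 ± 1.19 FPKM (SD, n = 3) in NSC-CiPSC and 52.3 ± 0.393 FPKM (SD, n = 2) in IEC-CiPSC, a log2 difference of -2.28 ± 0.11 (limma adjusted p = 0.00535). Nnat averaged 32.1 ± 9.90 FPKM (SD, n = 3) in NSC-CiPSC and 3.24 ± 0.664 FPKM (SD, n = 2) in IEC-CiPSC, at 2.93 ± 0.32 (limma adjusted p = 0.0206). The mesenchyme marker sum was also lower in NSC-CiPSC than in IEC-CiPSC, as given above, while the smooth muscle sums of the origins overlapped. The part of such cells in the Plagl1 difference was not tested. The Plagl1 order was that of the source cells, 2.64 FPKM in NSC and 389 FPKM in IEC, and the Nnat order was the reverse of theirs, 163 FPKM in NSC and 469 FPKM in IEC.

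Mest averaged 71.7 ± 27.4 FPKM (SD, n = 3) in NSC-CiPSC and 17.7 ± 4.91 FPKM (SD, n = 2) in IEC-CiPSC, a log2 difference of 1.91 ± 0.39 that was not called (limma adjusted p = 0.0621). It was called with robust moderation (0.0461) and with a filter of 1 FPKM in at least 2 libraries (0.0262). Snrpn at 0.66 ± 0.07 and Sgce at -0.49 ± 0.08 passed the p threshold (limma adjusted p = 0.0181 and 0.039) but not the fold. Peg3 was at 1.04 ± 0.35 (limma adjusted p = 0.151), and Slc38a4, Impact and Grb10 were at 0.43, 0.30 and -0.18 without a call. Leaving out either IEC-CiPSC line ended the Plagl1 call, at an unmoved difference (limma adjusted p = 0.0664 without line 10 and 0.0662 without line 13). The Nnat call was lost without NSC-CiPSC line 2 (0.0698), without NSC-CiPSC line 3 (0.0822), without IEC-CiPSC line 10 (0.149) and without line 13 (0.142).

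**Figure D3:**
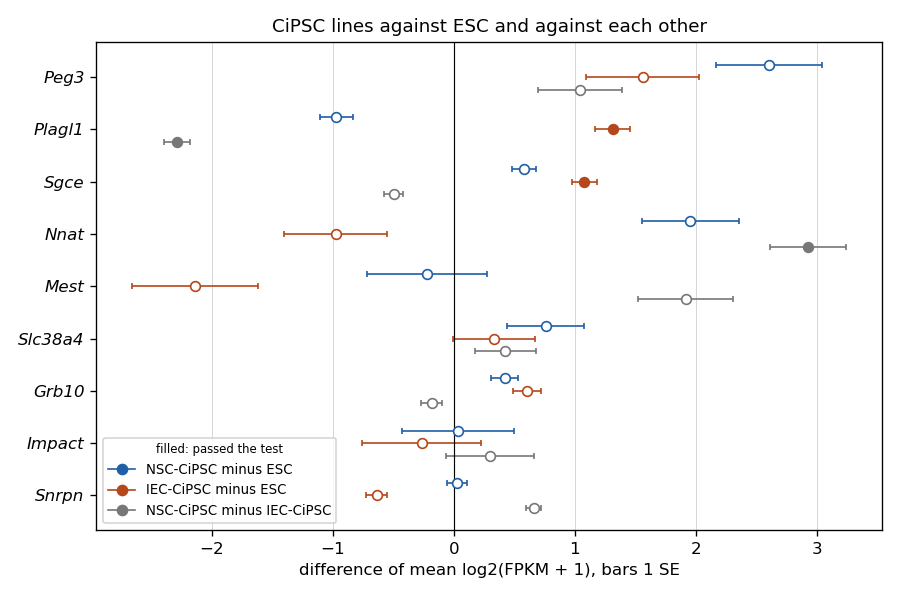
Difference of mean log2(FPKM + 1) for NSC-CiPSC minus ESC, IEC-CiPSC minus ESC and NSC-CiPSC minus IEC-CiPSC, for the 9 tested members, with bars of 1 SE; filled points passed the test. Peg3 lies right of 0 for both sets of lines, and Plagl1 and Nnat lie on opposite sides of 0 for NSC-CiPSC and IEC-CiPSC against ESC.

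The members also differed in how evenly the lines of 1 origin expressed them. Among the 3 NSC-CiPSC lines the SD of log2(FPKM + 1) was 0.669 for Peg10, 0.570 for Impact, 0.544 for Mest and 0.538 for Peg3, and 0.010 for Sgce, 0.068 for Grb10 and 0.084 for Snrpn, against a median of 0.181 over all tested genes. Line 1 had 2.20 times the mean of lines 2 and 3 for Peg10, 1.96 times for Impact, 1.85 times for Peg3 and 1.78 times for Mest. The Peg10 SD and ratio rest on values marked FAIL in lines 1 and 3, and Peg10 was not among the tested genes. Only 6.64% of 8936 genes with a mean of at least 5 FPKM reached a ratio of 1.5, and their median was 0.960. In the other direction, line 1 had 0.630 times the Slc38a4 level and 0.573 times the Nnat level of the other lines, where 11.6% of those genes were at 1/1.5 or lower.

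In the IEC-CiPSC pair the SD was 0.383 for Mest, 0.227 for Nnat and 0.141 for Slc38a4, and at most 0.115 for the other members, against a median of 0.084 over all tested genes. The Peg10 values of both lines were marked FAIL. Impact, among the most variable in NSC-CiPSC, had an SD of 0.003 here. With 3 and 2 lines the SDs themselves are loosely set, and the spreads of the origins were not tested against each other.

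**Figure D4:**
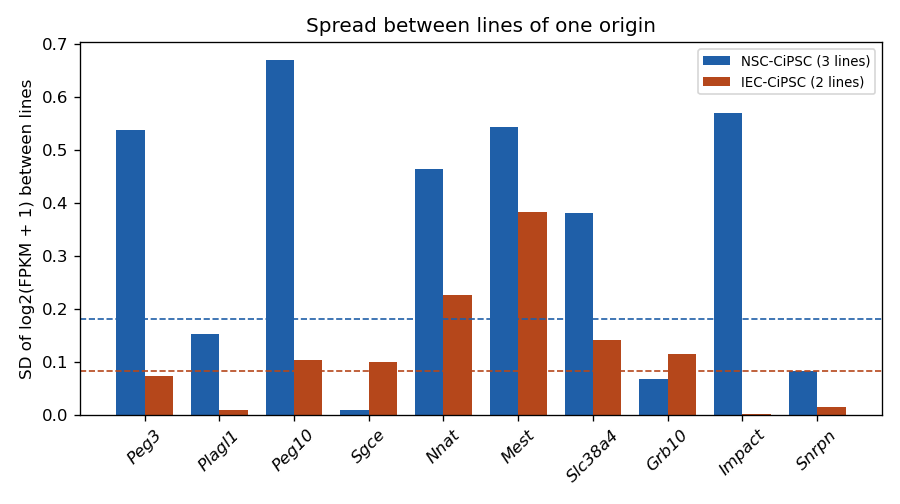
SD of log2(FPKM + 1) between the 3 NSC-CiPSC lines and between the 2 IEC-CiPSC lines for each of the 10 genes, with dashed lines at the medians over all tested genes. Peg10, Impact, Mest and Peg3 stand above 0.5 in NSC-CiPSC, and Mest is highest in IEC-CiPSC. The Peg10 bars include values marked FAIL, and Peg10 was not among the tested genes.

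Genes of the same imprinted regions were described from a list of neighbours. Of 21 listed neighbours, 18 were in the tables and 13 were tested. On the neural route Ddc rose and Ndn, Pon2, Peg12 and Blcap fell, 5 of 13 where 39.0% of all genes were called, with a median of -0.36 against 0.03 over all genes. On the intestinal route Peg12 and Mkrn3 rose and 7 fell (Pon3, Pon2, Ndn, Zim1, Tfpi2, Blcap and Klf14), 9 of 13 where 45.3% of all genes were called, with a median of -1.46 against -0.03 over all genes. Against ESC limma called 0 of 13 in either set of lines, where 2.81% (NSC-CiPSC) and 3.36% (IEC-CiPSC) of all genes were called. An unadjusted limma p under 0.05 was reached by 3 in NSC-CiPSC and 4 in IEC-CiPSC. Of all 17011 genes, 3758 and 4096 reached it. Between origins limma called Peg12 alone, where 4.32% of all genes were called.

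Blcap, which contains Nnat, had 15.3, 17.7 and 14.0 FPKM in NSC-CiPSC against 38.0 FPKM in NSC, and 10.7 and 11.7 FPKM in IEC-CiPSC against 33.8 FPKM in IEC, with 14.6 FPKM in ESC. It fell by 1.23 on the neural route (SE 0.15, limma adjusted p = 0.00427). The lines thus lay on both sides of the ESC level, in a narrower range than for Nnat. Ndn (necdin, a growth-restraining protein of the Snrpn region) had 5.70, 5.64 and 4.34 FPKM in NSC-CiPSC against 68.0 FPKM in NSC, and 10.7 and 9.90 FPKM in IEC-CiPSC against 92.6 FPKM in IEC, with 6.48 FPKM in ESC. Ndn fell by 3.48 on the neural route (SE 0.17, limma adjusted p = 0.000438) and fell by 3.05 on the intestinal one (SE 0.18, limma adjusted p = 0.000469), while Snrpn of the same region rose on both.

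Peg12, another gene of that region, had 1.15, 2.33 and 2.54 FPKM in NSC-CiPSC against 16.1 FPKM in NSC, and 9.13 and 8.62 FPKM in IEC-CiPSC against 2.70 FPKM in IEC, with 3.84 FPKM in ESC. It was lower in NSC-CiPSC than in IEC-CiPSC by a log2 difference of -1.75 ± 0.27 (limma adjusted p = 0.0363). Ube3a, the ubiquitin ligase gene at the edge of the region, lay between 12.1 and 14.4 FPKM in all lines, IEC and ESC and at 17.9 FPKM in NSC. Copg2, which overlaps Mest, lay between 42.4 and 66.9 FPKM in the lines, at 49.6 FPKM in NSC, 54.4 FPKM in IEC and 35.4 FPKM in ESC, a narrower range than that of Mest.

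**Figure D5:**
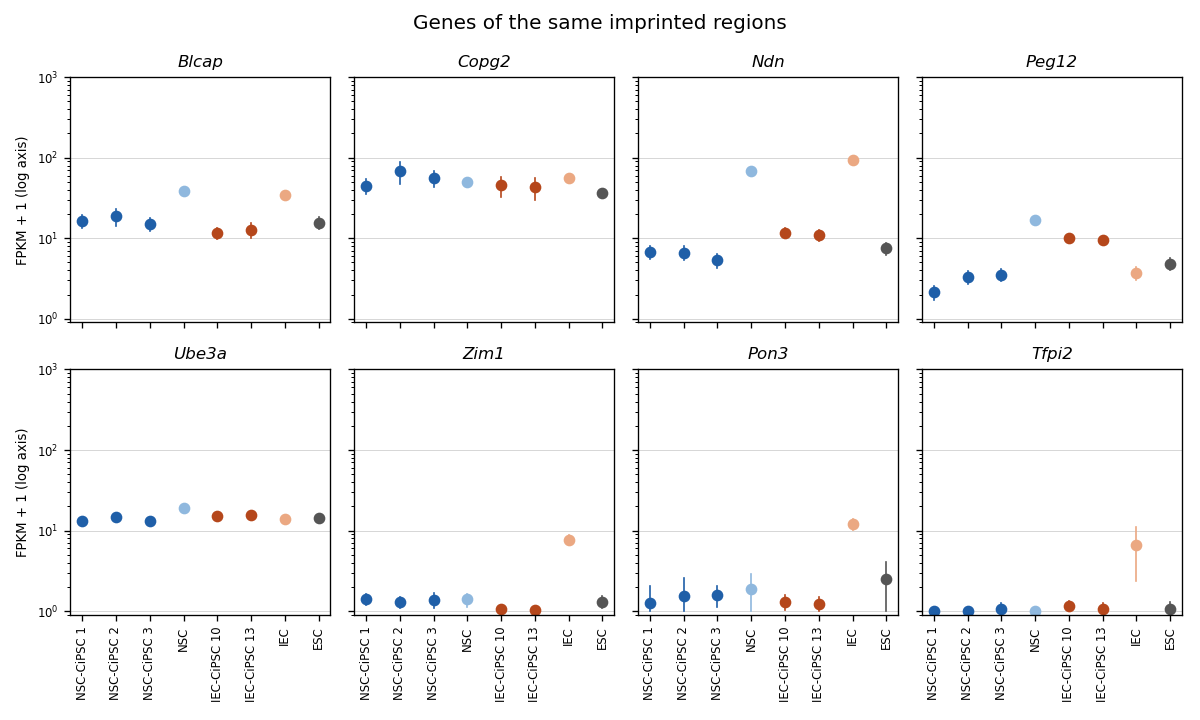
Levels of 8 genes from the same imprinted regions in each library, as FPKM + 1 on a log axis, with bars for the 95% interval given in the tables. Ndn and Blcap are highest in NSC and IEC, Ube3a and Copg2 vary little, and Zim1, Pon3 and Tfpi2 stand out in IEC.

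Other paternally expressed imprinted genes, 13 tested of 16 listed, gave 6 that rose and 2 that fell on the neural route and 3 that rose and 4 that fell on the intestinal one, with medians of 0.99 and -0.06. These are 8 and 7 of 13, where 39.0% and 45.3% of all genes were called, with all-gene medians of 0.03 and -0.03. Zdbf2 rose by 2.73 ± 0.33 on the log2 scale (limma adjusted p = 0.00408) and Nap1l5 fell by 4.13 (SE 0.09, limma adjusted p = 6.06e-05) on the neural route. Igf2, the fetal growth factor, fell by 8.52 (SE 0.43, limma adjusted p = 0.00029) on the intestinal route. Among 13 tested maternally expressed genes of 17 listed, 6 rose and 3 fell on the neural route and 2 rose and 6 fell on the intestinal one, with medians of 0.61 and -1.97. These 9 and 8 of 13 stand against the same 39.0% and 45.3% of all genes, and the same all-gene medians. Against ESC the maternally expressed RNA H19 was higher in NSC-CiPSC by 2.21 ± 0.23 (limma adjusted p = 0.0256). It was the only call of its list there, where 2.81% of all genes were called.

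Of 11 tested imprint maintenance factors, 5 rose and none fell on either route, namely Zfp57, Dppa3, Trim28, Uhrf1 and Dnmt1, with medians of 0.75 on the neural and 0.74 on the intestinal route, against 0.03 and -0.03 over all genes. A count of 5 of 11 is close to the 39.0% and 45.3% of all genes called on these routes, so the count says nothing particular of the list. Zfp57 had 241, 98.1 and 130.0 FPKM in NSC-CiPSC against 1.45 FPKM in NSC, and 127 and 147 FPKM in IEC-CiPSC against 16.5 FPKM in IEC, with 261 FPKM in ESC. Line 1 of NSC-CiPSC, the high line for Peg3, Impact, Mest and, in a value marked FAIL, Peg10, was thus also the high one for Zfp57. The same line was high for Trim28, at 683 FPKM against 437 and 463 FPKM in lines 2 and 3. Zfp57 and Trim28 are the only factors of the list given by line here. ESC had the highest Zfp57 level, at 261 FPKM. It lay below line 1 for Peg3 (4.33 FPKM), Impact (39.6 FPKM), Mest (79.7 FPKM) and the marked Peg10 value (40.4 FPKM in ESC). Whether the levels of these factors bear on the members was not tested. Dppa3, which shields methylated DNA in the egg and early embryo, was higher in NSC-CiPSC than in ESC by 3.12 ± 0.38 (limma adjusted p = 0.0363).

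Factors that add or remove methylation or keep methylation-independent imprints were tested in 10 cases. On the neural route 5 rose and 1 fell, and on the intestinal route 7 rose and 1 fell, with medians of 1.22 and 2.67, against 0.03 and -0.03 over all genes. These are 6 and 8 of 10, where 39.0% and 45.3% of all genes were called. The methyltransferase cofactor Dnmt3l rose by 6.41 ± 0.72 on the neural route (limma adjusted p = 0.0033) and by 6.96 ± 0.76 on the intestinal route (0.00263). Tet3, an enzyme that oxidises methylcytosine, fell by 1.98 (SE 0.12, limma adjusted p = 0.00074) on the neural route and fell by 1.54 (SE 0.13, limma adjusted p = 0.00121) on the intestinal route. Against ESC limma called 0 of the 10 in either set of lines, where 2.81% (NSC-CiPSC) and 3.36% (IEC-CiPSC) of all genes were called. An unadjusted limma p under 0.05 was reached by 2 in NSC-CiPSC and 4 in IEC-CiPSC. Of all 17011 genes, 3758 and 4096 reached it, so these counts say nothing particular of the list.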

How the data were processed

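RNA was extracted with a column kit and turned into libraries with the NEBNext Ultra kit, per the labels' protocols. The deposited tables hold FPKM per gene, for which the submitters' processing notes name TopHat, Cufflinks and the mm10 build; tool versions, the annotation and the strand of counting are not given in the sources used here. Each table has 39009 entries, of which 37451 were matched to GENCODE M21 for positions and gene type. Entries marked LOWDATA (428) or FAIL in any library (19) and genes under 1 FPKM in all 8 libraries were left out, which left 17011. Depth was estimated from the intervals that the authors' tables give beside the FPKM of single-transcript genes, and lay between about 8820000 and 10120000 fragments.

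log2(FPKM + 1) of the deposited values was fitted over all 5 groups with limma 3.58.1 (R 4.3.3), with Benjamini-Hochberg adjustment over the 17011 genes and a minimum difference of 2-fold; 3 residual degrees of freedom came from the CiPSC lines. The change along the neural route was set against that along the intestinal route as an interaction contrast. The fit was tested on simulated data. Because FPKM are no counts, no count model was used. Alternatives were a pseudocount of 0.1, no filter, a filter of 1 FPKM in at least 2 libraries, quantile normalization, upper quartile scaling, robust moderation, protein-coding autosomal genes alone, no minimum fold, and leaving out each line.

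The members and all gene lists were chosen with earlier results of these data known, so their counts are descriptions. Besides the members, genes were named if called in the comparison described, at most 4 per list and comparison by size of difference, with genes needed to account for a count of 5 or fewer. Blcap, Copg2 and Ube3a were also given as neighbours, and Trim28 beside Zfp57. For the neighbours on the intestinal route, all called genes were named, which goes beyond that limit. The genes most like a member were ranked by Pearson r. The tables used Python 3.11.15 with pandas 2.3.3, and the plots matplotlib 3.10.9.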

Additional observations from a re-analysis of the deposited data

Results flagged for a closer look

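The change from source cells to CiPSC lines differed between the neural and the intestinal route for 6 of 9 tested members (limma interaction contrast). Such a difference was called for 30.5% of all genes tested. The neural change minus the intestinal change was 5.41 for Slc38a4, 5.20 for Grb10, 4.46 for Plagl1, 4.45 for Nnat, 2.83 for Mest and -1.99 for Snrpn on the log2 scale. The Mest call was lost under several of the alternatives, as given above. Plagl1 and Grb10 rose in NSC-CiPSC against NSC and fell in IEC-CiPSC against IEC, and Nnat fell on both routes with the larger change on the intestinal one. Each value contains the difference between 1 NSC and 1 IEC library, and the IEC library carried 6792 FPKM of mesenchyme markers, whose part in these values was not tested.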

How the results depend on the processing

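No paired analysis was possible because NSC, IEC and ESC have 1 library each and the NSC-CiPSC and IEC-CiPSC lines share no number. On both routes 6 or 7 members were called under each alternative, and between routes 5 to 7. Against ESC and between origins, counts moved. For NSC-CiPSC against ESC, 1 member was called with a filter of 1 FPKM in at least 2 libraries (Peg3), 1 with upper quartile scaling and 1 with no minimum fold (Plagl1 in both), and 0 to 2 when a line was left out, with 2 without NSC-CiPSC line 1; genes called numbered 478, 202 among protein-coding autosomal genes and 187 to 727 with a line left out. For IEC-CiPSC against ESC, members called ranged from 0 to 3 with a line left out (3 without NSC-CiPSC line 1), and genes from 153 to 897 around 572, with 246 among protein-coding autosomal genes. For NSC-CiPSC against IEC-CiPSC, 4 members were called with no minimum fold and 0 to 2 with a line left out; genes numbered 735, 469 among protein-coding autosomal genes and 98 to 795 with a line left out. The cause was not tested, but leaving out a line also leaves 2 residual degrees of freedom.

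Directions turned only in uncalled values near 0. Against ESC in NSC-CiPSC, Snrpn was -0.03 with quantile normalization and -0.02 with upper quartile scaling and -0.02 to 0.06 with a line left out (lowest without line 2), Impact was -0.0013 with quantile normalization, -0.0014 with upper quartile scaling and -0.28 to 0.27 with a line left out (lowest without line 1), and Mest ran from -0.50 to 0.04 with a line left out (highest without line 2). Impact between origins ran from -0.02 to 0.53 with a line left out (lowest without NSC-CiPSC line 1). Impact on the neural route passed with the 2-library filter (limma adjusted p = 0.033). Quantile normalization moved the median of all genes on the intestinal route to 0.15, against -0.03, and the share of calls that were higher to 52.6%, against 42.2%; in the contrast of routes it moved the median to -0.14, against 0.02, and that share to 47.5%, against 57.6%. No called member changed direction with it. Single libraries for NSC, IEC and ESC and 2 or 3 lines per origin set the precision.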

Other observations

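Among 2789 variable genes, those whose log2(FPKM + 1) followed a member most closely over the 8 libraries differed from member to member. Grb10 was followed by Tpm2 (Pearson r = 0.997) and Tlr2 (0.994), Plagl1 by Gsdmd (0.991) and Anxa1 (0.990), and Sgce by Eml1 (0.989) and Cav1 (0.986). Slc38a4 was followed by Csrp2 (0.995) and F11r (0.993), Snrpn by Dnph1 (0.993) and Hmgb2 (0.992), and Nnat by Usp25 (0.982) and Micu2 (0.979). Peg10 was followed by Ctnnal1 (0.980) and F2rl1 (0.971), with marked entries included. Lower values led for Impact, with Socs2 (0.943) and Mirg (0.935), for Mest, with Atxn1l (0.936) and Ece1 (0.931), and for Peg3, with Cdc42ep2 (0.879) and Pdpn (0.857). Many other genes came close for some members. Genes with r above 0.95 numbered 149 for Sgce, 82 for Grb10, 36 for Slc38a4, 29 for Snrpn and 22 for Plagl1. They numbered 14 for Peg10, 13 for Nnat, and 0 for Impact, Mest and Peg3. All r values are over 5 groups of which 3 are single libraries, so a few libraries set each r, and they are descriptions with n = 8. No member was among the 2 closest genes of another.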
